A study of Apis mellifera with 36 samples.

Results

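Genes named for ecdysteroid and juvenile hormone signalling were followed in single honeybee (Apis mellifera) embryos. They were taken from the deposited table by words in the annotated mRNA product, such as ecdysone, ultraspiracle, hormone receptor, nuclear receptor, juvenile hormone, broad-complex and COUP. The words matched 66 of 12365 genes. Of these, 33 are named for a hormone, a hormone receptor or a nuclear receptor, and the other 33 matched only because the letters of COUP stand inside coupled, coupling or uncoupling (transporters and G protein-coupled receptors). The 33 hormone-named genes are described here, and the letter matches are given by counts. By role they are 16 nuclear receptors, 4 ecdysone-named factors, 4 juvenile hormone enzymes, an ecdysis hormone and its receptor, 4 membrane hormone receptors and 3 nuclear receptor-associated proteins.

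The study sequenced 36 whole embryos, 1 embryo per library. Female embryos (labelled worker) and male embryos (labelled drone) came from 2 queens and were taken 24, 48 and 72 h after egg laying (AEL). There were 3 embryos for each queen, sex and time, so 6 for each sex and time. The labels give no treatment. Sex was given by the type of comb frame in which the eggs were laid, and female honeybees are diploid while males are haploid. Queen 1 and queen 2 are also the 1st and 2nd batch in the labels, so queen and batch cannot be told apart. Embryos of 1 queen share a mother, and p-values measure the spread between these embryos.

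In insects, the steroid ecdysone is converted to 20-hydroxyecdysone, which binds a heterodimer of the ecdysone receptor Ecr and ultraspiracle (Usp). In Drosophila this pair switches on early genes such as E75, E74 and broad-complex, and then a cascade of further nuclear receptors that includes HR3, HR4 and FTZ-F1. Juvenile hormone, a lipid, shapes what an ecdysteroid pulse brings about, and ecdysteroid pulses accompany cuticle formation in the embryos of many insects.

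Levels below are CPM (gene counts relative to the library's effective total) scaled by the trimmed mean of M values (TMM), unless RPKM is named. The gene counts of a library summed to between 1195774 and 12808580, with a median of 6152930. The 72 h male embryos had the lowest sums, between 1195774 and 2008560. The total by which the authors scaled their RPKM values could be recovered from the files, and the genes held 66.1% ± 3.07 of it in 72 h female embryos but 25.96% ± 4.82 in 72 h male embryos (SD, n = 6 each). The choice of total therefore bears on every comparison with these embryos, and values under both scalings are given for many of the results below. Queen 1 male 48 h embryo 6 stood apart: genes held 67.0% of its RPKM total, against 46.1 to 54.7% in the other 48 h male embryos.

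A gene was called higher or lower in edgeR's quasi-likelihood test when the log2 fold change was above 1 or below -1 and p, adjusted by Benjamini-Hochberg over the 9575 genes tested, was below 0.05. Of the 33 members, 26 had enough counts to be tested. At 24 h AEL no member was called between the sexes (0 of 26 in each direction, where 0.0104% of all genes were called higher and 0.0836% lower in female embryos). At an unadjusted p under 0.05 there were 5 members, 1 higher and 4 lower in female embryos, and DESeq2 called 0. The share of all genes at that unadjusted cut was not counted, so the 5 cannot be set against it. At 48 h AEL, 7 members were higher in female embryos (all genes: 33.7%) and 8 lower (27.6%). At 72 h AEL, 5 were higher (38.2%) and 13 lower (26.8%), and the members' median log2 difference was -1.002 beside 0.41 for all genes. This last split turned with the scaling: with the totals behind the RPKM values, 16 members were higher (all genes: 78.8%) and 2 lower (7.73%) at 72 h, and the median of all genes moved to 2.97. At 48 h the same totals gave 13 higher (49.2%) and 7 lower (17.6%).

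**Figure D1:**
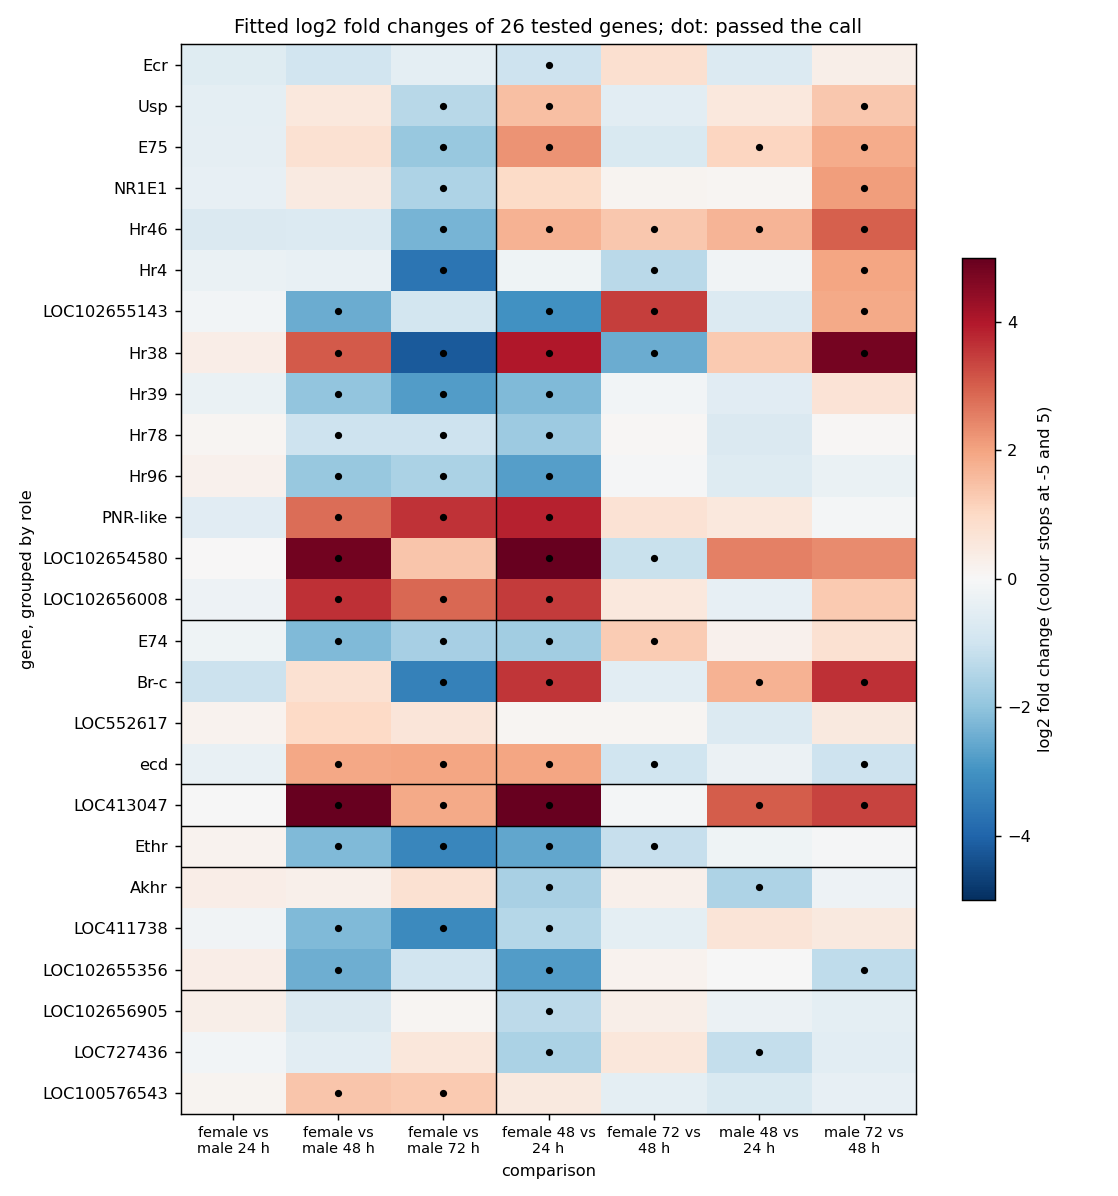
Fitted log2 fold changes (colour) of the 26 tested members, as rows grouped by role, in 7 comparisons, as columns; positive values are higher in female embryos or at the later time, and a dot marks a gene that passed the call. The first column, female against male embryos at 24 h, holds 0 dots, and the column for female embryos between 24 and 48 h holds 22.

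Between 24 and 48 h AEL, 10 members rose in female embryos (all genes: 32.4%) and 12 fell (26.5%). In male embryos 4 rose (10.9%) and 2 fell (10.4%). Between 48 and 72 h AEL, 3 rose (20.7%) and 5 fell (14%) in female embryos, while 9 rose (16.7%) and 2 fell (11.6%) in male embryos. The 9 were Hr38, Br-c, LOC413047, Hr46, NR1E1, Hr4, LOC102655143, E75 and Usp, and 7 of them are nuclear receptors, of 14 tested. With the totals behind the RPKM values, 4 members rose (all genes: 4.25%) and 10 fell (63.6%) in male embryos over this step. Under the same totals 0 rose (2.49%) and 13 fell (38.5%) between 24 and 48 h in male embryos, and 5 rose (28.4%) and 1 fell (8.16%) between 48 and 72 h in female embryos. The step of 24 to 48 h in female embryos again had 10 rises (30.2%) and 12 falls (28.5%).

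The step from 24 to 48 h differed between the sexes (interaction term of the same fit) for 16 members. This term, the female minus the male change, was positive for 7 (all genes: 29.3%) and negative for 9 (26.5%). With the totals behind the RPKM values the counts were 10 (43.3%) and 6 (17.9%). The step from 48 to 72 h differed for 11, of which 2 were upward (23.3%) and 9 downward in female relative to male embryos (20.5%). With the totals behind the RPKM values the counts of this second step were 13 (66.2%) and 3 (5.16%).

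Ecr, the receptor for 20-hydroxyecdysone (linkage group 8, 9961871 to 10096915, plus strand), had a level at 24 h between 338 and 531 CPM in female embryos (median 458) and between 472 and 829 CPM in male embryos (median 679). At 48 h it lay between 181 and 330 CPM in female embryos (median 195), below every 24 h female embryo, and a log2 fold change of -1.04 ± 0.30 passed the call (adjusted p = 0.0017, edgeR). This call was just past the fold threshold: the value was -0.99 without queen 1 female 24 h embryo 15 and -0.98 without queen 2 female 48 h embryo 30. At 72 h female embryos held 308 to 473 CPM (median 377), and the change from 48 h of 0.79 ± 0.30 did not reach the fold threshold. The male embryos at 48 h spread from 52.9 to 893 CPM (median 411), and the lowest was queen 1 embryo 6. At 72 h they held 405 to 990 CPM (median 450), and with TMM scaling Ecr was called neither between the sexes at any time nor between times in male embryos. Scaled by the RPKM totals, it was called higher in female embryos at 72 h (2.05, against -0.47), lower in male embryos at 48 than at 24 h (-1.63, against -0.69) and higher in female embryos at 72 than at 48 h (1.15).

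Usp, the partner of Ecr (linkage group 9, 6045896 to 6100583, minus strand), moved otherwise. In female embryos it rose from 10.8 to 22.8 CPM at 24 h (median 15.4) to 37.1 to 56.4 CPM at 48 h (median 45.1), without overlap (log2 1.52 ± 0.18, adjusted p = 5.1e-10, edgeR). At 72 h it lay between 23.5 and 40.3 CPM (median 32.05). In male embryos it lay between 15.8 and 26.2 CPM at 24 h, 20.05 and 45.7 CPM at 48 h, and 64.99 and 132 CPM at 72 h (medians 21.8, 33.2 and 78.1). The last step was a rise (log2 1.36 ± 0.19, adjusted p = 1.5e-07), and the sexes did not overlap at 72 h (log2 -1.37 ± 0.19). With the totals behind the RPKM values the male rise became -0.06 and the difference at 72 h became 1.24, a call in the other direction. At 48 h those totals called Usp higher in female embryos (1.33, against 0.51 and not called with TMM scaling).

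The ratio of 2 genes within an embryo is the same under every scaling. These ratios were chosen after the values had been seen. The permutation tests on them shuffled the embryos of both queens together, without queen as a term. The queens could differ: in 48 h female embryos Usp per 100 Ecr lay between 93.3 and 120 for queen 1 and between 47.4 and 72.4 for queen 2. Per kilobase of exon, there were 12.4 to 16.7 Usp counts for 100 Ecr counts in 24 h female embryos and 9.27 to 17.4 in 24 h male embryos. At 48 h the ratio lay between 47.4 and 120 in female embryos (median 82.9) and between 18.9 and 147 in male embryos (median 36.6), a difference that did not pass (exact permutation test, two-sided p = 0.080, adjusted over 6 tests p = 0.12). The highest male value, 147, was that of queen 1 embryo 6. At 72 h the order was turned, with 27.2 to 43.0 in female embryos (median 31.6) and 32.6 to 110 in male embryos (median 64.4; log2 difference -0.96, exact permutation p = 0.0087, adjusted p = 0.017). Within queen 1 the log2 difference was -0.83 and within queen 2 it was -1.08.

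E75, a nuclear receptor that is an early ecdysone target in Drosophila (linkage group 11, 8359841 to 8520333, minus strand), rose in both sexes between 24 and 48 h. Female embryos held 21.4 to 44.4 CPM at 24 h (median 30.7) and 93.8 to 231 CPM at 48 h (median 159), without overlap (log2 2.26 ± 0.29, adjusted p = 2.7e-09, edgeR). At 72 h they held 55.6 to 166 CPM (median 71.7). Male embryos held 25.6 to 59.0 CPM at 24 h, 25.9 to 143 CPM at 48 h and 232 to 504 CPM at 72 h (medians 43.2, 102.2 and 326). Both male steps were called (log2 1.06 ± 0.28 and 1.87 ± 0.29), but with the totals behind the RPKM values they were 0.14 and 0.49 and neither was called. With TMM scaling the first fell short of the fold threshold when queen 2 male 24 h embryo 8, queen 1 male 48 h embryo 4 or queen 2 male 48 h embryos 21 or 26 were left out one at a time (0.92 to 1.00). At 72 h the sexes did not overlap (log2 -1.89 ± 0.29, adjusted p = 1.6e-07), and with the totals behind the RPKM values this became 0.72 and was not called. At 48 h those totals called E75 higher in female embryos (1.64, against 0.76 and not called with TMM scaling).

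E75 was also set against Ecr within each embryo. Female embryos had 10.9 to 15.7 E75 counts per 100 Ecr counts at 24 h, 97.3 to 154 at 48 h and 22.1 to 93.5 at 72 h. Male embryos had 10.2 to 13.4 at 24 h, 24.6 to 92.1 at 48 h and 77.2 to 205 at 72 h. The female ratio was the higher at 48 h, without overlap (log2 1.42, exact permutation p = 0.0022, the smallest that 6 against 6 embryos allow, adjusted p = 0.013). It was the lower at 72 h (log2 -1.57, exact permutation p = 0.0043, adjusted p = 0.013), by -0.83 within queen 1 and -2.31 within queen 2.

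**Figure D2:**
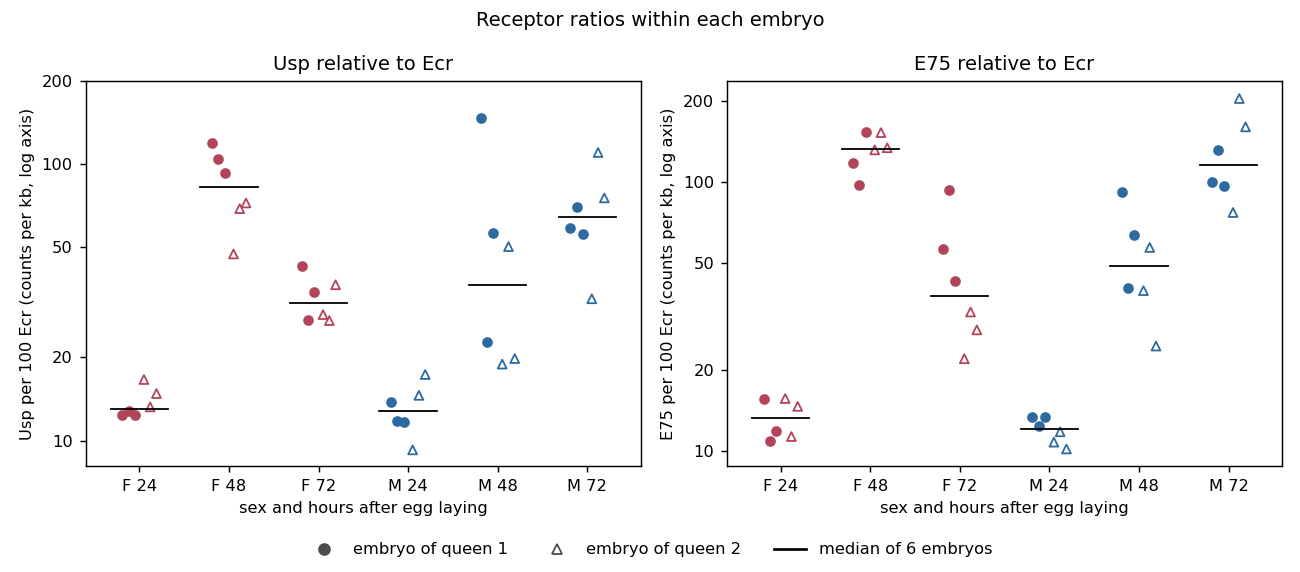
Usp (left) and E75 (right) relative to Ecr in each embryo, as exon-length-corrected counts per 100 Ecr counts on a log axis, by sex (F, M) and hours after egg laying; circles are embryos of queen 1, triangles embryos of queen 2 and lines the medians of 6 embryos. The female median of E75 is the higher one at 48 h and the lower one at 72 h, and the male 48 h circle at 147 in the left panel is queen 1 embryo 6.

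NR1E1, annotated as ecdysone induced protein 78 and a relative of E75, held 2.77 to 7.24 CPM in 24 h female and 5.29 to 6.71 CPM in 24 h male embryos. It rose in male embryos from 1.74 to 11.6 CPM at 48 h (median 6.10) to 20.4 to 53.0 CPM at 72 h (median 22.5), without overlap (log2 2.10 ± 0.28, adjusted p = 4.1e-08, edgeR). Female embryos at 72 h held 6.73 to 11.4 CPM, below every male embryo of that age. With the totals behind the RPKM values the difference of -1.53 became 1.10, a call in the other direction, and the male rise became 0.68 and was not called. At 48 h those totals called NR1E1 higher in female embryos (1.29, against 0.45 and not called with TMM scaling).

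Hr46 is the honeybee gene named for the locus of Drosophila HR3, a receptor that acts after the early genes. It was sparse, with 15 counts in all 24 h female embryos together and 24 in all 24 h male embryos. In male embryos it rose to 0.158 to 2.26 CPM at 48 h (median 1.60; log2 1.68 ± 0.59, but 0.81 and not called with the RPKM totals) and to 5.72 to 26.7 CPM at 72 h (median 9.29), and the 48 and 72 h values did not overlap (log2 3.00 ± 0.53, adjusted p = 8.5e-06). The second rise was also called with the totals behind the RPKM values (1.54), while the difference between the sexes at 72 h turned from -2.31 to 0.30. Female embryos held 0.984 to 5.31 CPM at 72 h (median 1.67). Their rise from 48 h (1.36 ± 0.48) was 0.79, and not called, without queen 1 embryo 15, the one at 5.31 CPM.

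Hr38, the insect member of the NR4A receptor family, lay between 0.158 and 0.483 CPM in 24 h female embryos, 4.12 and 9.61 CPM at 48 h (median 4.404) and 0.0984 and 1.38 CPM at 72 h (median 1.09). The rise (log2 4.01 ± 0.52) and the fall (-2.48 ± 0.46) both passed the call without overlap between times (adjusted p = 4.7e-09 and 1.0e-05, edgeR). In male embryos it lay between 0.106 and 0.515 CPM at 24 h, 0.158 and 1.29 CPM at 48 h, and 1.54 and 53.0 CPM at 72 h (median 14.04). That rise of 4.77 ± 0.58 (adjusted p = 8.0e-09) rested on 95 counts in the 6 embryos at 72 h. The sexes did not overlap at 48 h, where females were higher (3.05 ± 0.56), nor at 72 h, where males were higher (-4.20 ± 0.49). Both directions held with the totals behind the RPKM values (3.82 and -1.50).

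The genes named for HR4, which in Drosophila acts with HR3, were Hr4 and LOC102655143. Hr4 was at 0.2497 to 1.06 CPM in 72 h female and 0.818 to 15.5 CPM in 72 h male embryos (log2 -3.66 ± 0.52, adjusted p = 3.9e-08), and the groups overlapped through queen 1 male embryo 6 at 0.818 CPM. The difference was still called with the RPKM totals (-1.05). LOC102655143 dipped in female embryos, from 2.57 to 4.99 CPM at 24 h through 0 to 1.23 CPM at 48 h to 2.76 to 7.99 CPM at 72 h. Both steps passed without overlap (log2 -3.04 ± 0.46 and 3.47 ± 0.45). The male embryos held 0.947 to 4.84 CPM at 48 h and 5.62 to 21.7 CPM at 72 h (1.90 ± 0.45, adjusted p = 0.00047), a rise of 0.48 and not called with the totals behind the RPKM values. Their step from 24 to 48 h was not called with TMM scaling (-0.67), but was a called fall with the RPKM totals (-1.55).

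**Figure D3:**
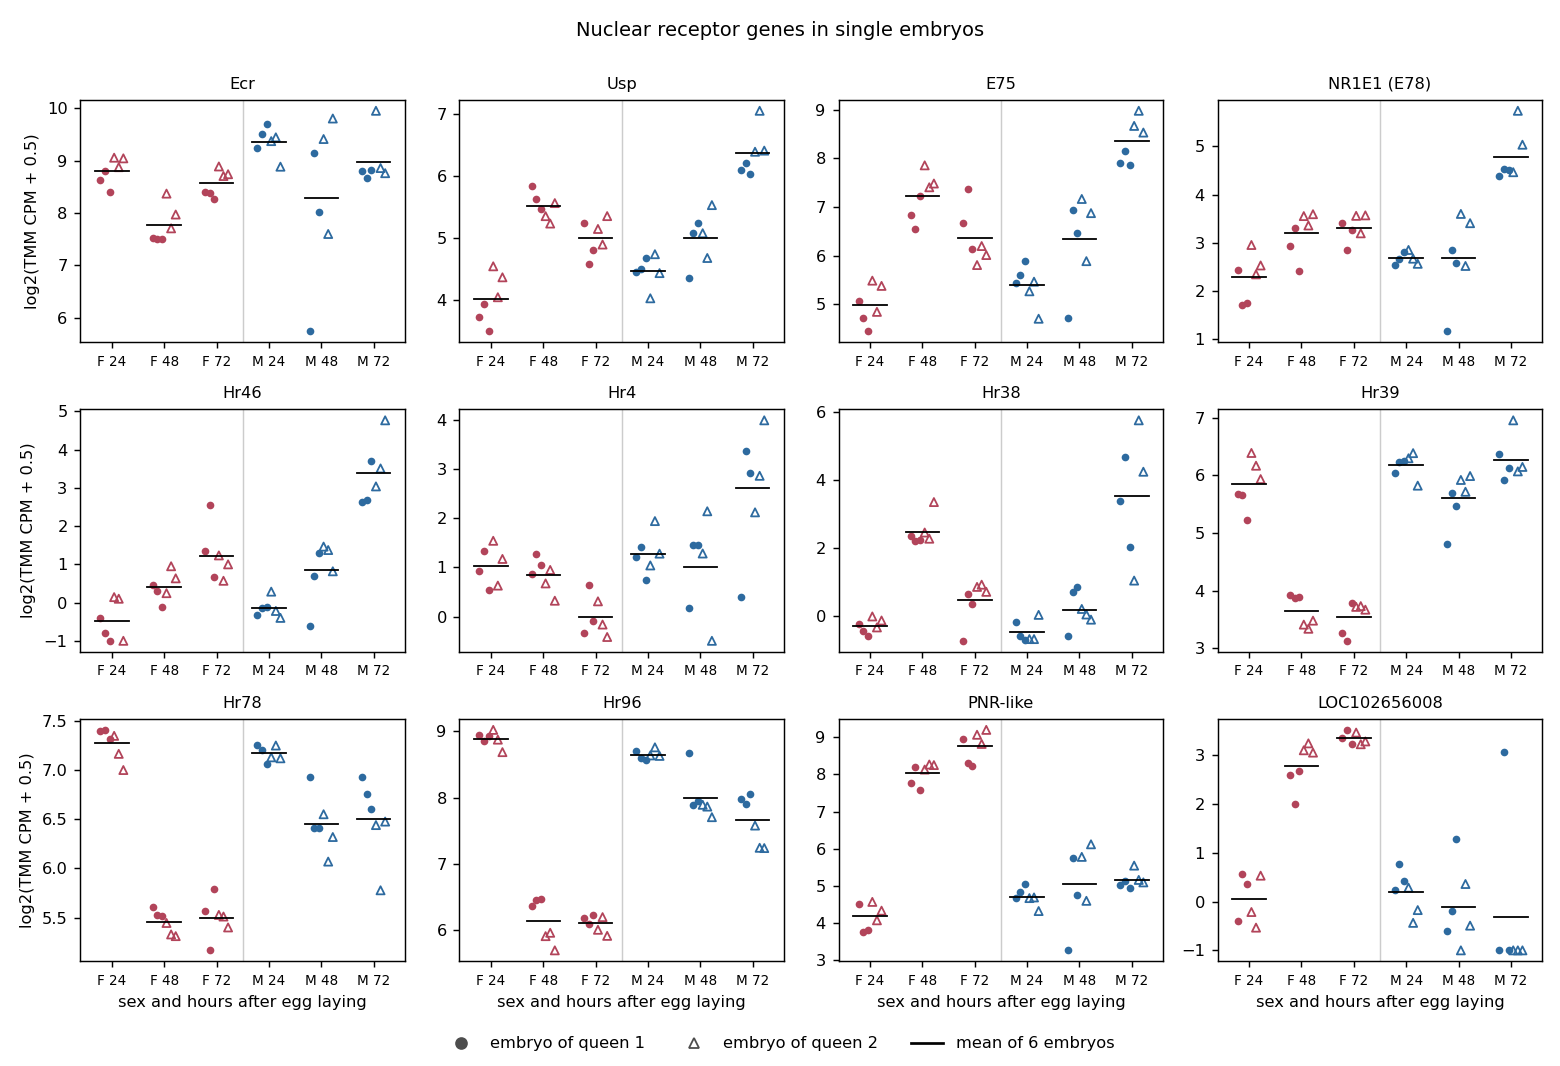
Levels of 12 nuclear receptor genes in the 36 embryos, as log2(TMM CPM + 0.5), by sex (F, M) and hours after egg laying; circles are embryos of queen 1, triangles embryos of queen 2 and lines the means of 6 embryos. PNR-like and LOC102656008 are high in 48 and 72 h female embryos, Hr39, Hr78 and Hr96 are lower in them than at 24 h, and E75, NR1E1, Hr46 and Hr38 reach their highest mean in 72 h male embryos under this scaling.

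A further set of receptors was high at 24 h and fell in female embryos. Hr96, the homologue of the vertebrate xenobiotic receptors, went from 411 to 519 CPM at 24 h to 51.2 to 87.8 CPM at 48 h in female embryos (log2 -2.75 ± 0.13, adjusted p = 1.6e-21) and stayed between 59.7 and 74.5 CPM at 72 h. Male embryos held 377 to 432 CPM at 24 h and 208 to 407 CPM at 48 h, the highest being queen 1 embryo 6. Hr39, an FTZ-F1 relative, went from 37.0 to 83.2 CPM to 9.63 to 14.7 CPM in female embryos (-2.22 ± 0.18), while 48 h male embryos held 27.6 to 62.9 CPM. Hr78 went from 127 to 169 CPM to 39.2 to 48.2 CPM in female embryos (-1.83 ± 0.12), while 48 h male embryos held 66.6 to 122 CPM. With TMM scaling none of the 3 was called between 24 and 48 h in male embryos, and the interaction term was called for each (-2.11 ± 0.18, -1.65 ± 0.25 and -1.13 ± 0.17). Scaled by the RPKM totals, all 3 were called lower in male embryos at 48 h (-1.48, -1.46 and -1.57), and the interaction was not called for Hr39 (-0.90) or Hr78 (-0.40). The difference of Hr78 between the sexes lay at the threshold at 48 h (-1.02 ± 0.12), and it was -0.93 without queen 1 male 48 h embryo 6, -0.99 without queen 2 male 48 h embryo 21 and -0.23 with the totals behind the RPKM values. At 72 h the lower female level of Hr96 (-1.59) became 0.98 with those totals and was not called. That of Hr78 (-1.04, and -0.95 or -0.96 without queen 1 female embryo 15 or queen 1 male embryo 6) became 1.53, a call in the other direction. Hr39 went from -2.80 to -0.25 and was not called.

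Another set was high in female embryos only after 24 h. PNR-like, named for the photoreceptor-specific nuclear receptor of vertebrates (linkage group 12, 9806942 to 9817680, minus strand), held 13.1 to 23.3 CPM at 24 h, 192 to 306.5 CPM at 48 h (median 285) and 298 to 584 CPM at 72 h (median 472) in female embryos. The first step was a 14.6-fold rise (log2 3.87 ± 0.26, adjusted p = 3.2e-17, edgeR). Male embryos held 19.6 to 32.9 CPM, 9.16 to 69.0 CPM and 30.3 to 46.2 CPM at the same times, with neither step called under TMM scaling. With the RPKM totals the second male step was a called fall (-1.46). The sexes did not overlap at 48 h (2.78 ± 0.25) or 72 h (3.63 ± 0.27), and the direction was the same with the totals behind the RPKM values (3.64 and 6.19).

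LOC102656008 and LOC102654580 are both annotated as nuclear receptor subfamily 2 group E member 1-like, the group of Drosophila tailless. LOC102656008 held 0.191 to 0.975 CPM at 24 h, 3.53 to 8.98 CPM at 48 h and 8.85 to 10.98 CPM at 72 h in female embryos (24 to 48 h: log2 3.49 ± 0.45). In 72 h male embryos it was at 0 in 5 embryos and at 7.90 CPM in queen 1 embryo 4, from 8 counts. LOC102654580 had 0 counts in all 24 h embryos and 2.65 to 2.99 CPM in 48 h female embryos, at least 9.69-fold above a floor of 3 counts per library. In 48 h male embryos it had 2 counts, both in queen 2 embryo 26. At 72 h LOC102654580 was not called between the sexes (1.38), and queen 2 male embryo 24 held 2.81 CPM. In female embryos it fell from 48 to 72 h (-1.11). With the RPKM totals the 72 h difference was called (3.80) and the fall was not (-0.76).

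Within a condition, exon-length-corrected levels (deposited RPKM) order the receptors. Hr96 came first in 24 h female embryos (115 ± 9.4 RPKM, SD, n = 6), ahead of Hr78 (34.2 ± 4.3), Ecr (19.02 ± 2.5) and Hr39 (9.93 ± 2.4). The same 4 led in this order in 24 h male embryos. PNR-like came first in female embryos at 48 h (34.7 ± 6.1) and 72 h (74.4 ± 17). Behind it at 48 h, Hr96 (15.8 ± 3.7), E75 (11.3 ± 3.8), Hr78 (8.73 ± 0.93) and Ecr (8.57 ± 2.4) differed from their neighbours by about their spread or less. In 72 h male embryos Hr96 (10.2 ± 4.0) was followed by E75 (5.09 ± 1.4), Ecr (4.54 ± 2.7) and Hr78 (4.11 ± 1.6), which did not differ beyond their spread.

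Over the 12 means of queen, sex and time, the genes with the pattern most like Ecr were tsl (torso-like; Spearman rho 0.91), Gprk1 (a G protein-coupled receptor kinase; 0.90), LOC409192, LOC100577709 and Picot (0.90 each). These means share libraries and are a description only.

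The receptor LOC551232 (HR38-like) had 4 counts in all embryos and Hr51 had 56, of which 22 were in the 72 h male embryos, so neither was tested.

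Of the ecdysone-named factors, E74, an ETS-domain transcription factor (linkage group 3, 1532625 to 1681210, plus strand), fell and rose again in female embryos. It held 228 to 270 CPM at 24 h, 44.9 to 131 CPM at 48 h (median 54.1) and 124 to 307.4 CPM at 72 h (median 159), with log2 changes of -1.74 ± 0.23 and 1.29 ± 0.23. Male embryos held 255 to 319 CPM, 178 to 491 CPM and 465 to 780 CPM, with neither step called. The sexes did not overlap at 48 h (-2.19 ± 0.23, adjusted p = 2.5e-11) or 72 h (-1.67 ± 0.23). Scaled by the RPKM totals, the first was -1.31 and the second 0.94. Genes on both strands overlap E74, and without stated strand use their reads cannot be told apart.

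Br-c, the broad-complex gene for BTB zinc finger factors that mark the pupal programme in Drosophila (linkage group 13, 1942221 to 2000857, plus strand), was sparse at 24 h (16 counts in female, 32 in male embryos). In female embryos it rose from 0.075 to 0.604 CPM to 2.41 to 3.90 CPM at 48 h (log2 3.57 ± 0.47, adjusted p = 5.4e-09) and lay between 0.375 and 3.54 CPM at 72 h. In male embryos it rose from 0.239 to 1.03 CPM at 24 h to 1.10 to 2.61 CPM at 48 h (1.75 ± 0.48) and to 4.62 to 46.4 CPM at 72 h (median 22.8; 3.64 ± 0.42, adjusted p = 2.3e-09). At 72 h no male embryo was as low as a female one (log2 -3.39 ± 0.38). The late male rise was still called with the RPKM totals (2.15), but the earlier one was 0.89, and the difference at 72 h -0.73, neither called. At 48 h those totals called Br-c higher in female embryos (1.58, against 0.77 and not called with TMM scaling).

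The gene ecd, named for the Drosophila ecdysoneless mutant, whose product takes part in pre-mRNA splicing, was tight within groups. It went from 46.8 to 52.5 CPM at 24 h to 169 to 217 CPM at 48 h and 84.2 to 109 CPM at 72 h in female embryos (log2 1.96 ± 0.11, adjusted p = 2.7e-19, then -1.01 ± 0.11). Male embryos held 55.1 to 72.0 CPM, 43.7 to 69.0 CPM and 17.8 to 31.1 CPM, the last a fall of 1.05 ± 0.14. Both falls lay at the threshold and went to -0.97 without single embryos, queen 1 female 72 h embryo 4 in the first and queen 2 male 48 h embryo 21 in the second. Female embryos were higher at 48 h (1.92 ± 0.11) and 72 h (1.96 ± 0.13), also with the totals behind the RPKM values, with which the fall in female embryos was -0.65 and not called. LOC552617, the orthologue of Drosophila Eip63E, a cyclin-dependent kinase, was called in none of the 9 comparisons with TMM scaling and held 25.6 to 122 CPM over all embryos. Scaled by the RPKM totals, it was called in 5: higher in female embryos at 48 h (1.82) and 72 h (3.15), lower in male embryos at 48 than at 24 h (-1.57), and upward in female relative to male embryos in both interactions (1.55 and 1.33).

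Of the juvenile hormone enzymes, jhamt, which makes the hormone's methyl ester, had 40 counts in all embryos and Jhe, the esterase that breaks the hormone down, had 156, too few to be tested. A juvenile hormone esterase-like gene, LOC413047, had 0 counts in all 24 h embryos. In female embryos it was at 5.10 to 8.19 CPM at 48 h and 2.95 to 7.24 CPM at 72 h, and the 48 h mean of 5.92 CPM was at least 19.99-fold above a floor of 3 counts per library. Male embryos had 3 counts in 2 embryos at 48 h and 9 counts at 72 h (0 to 3.56 CPM), and the second male step was called (3.38 ± 0.88). The female excess at 48 h passed without overlap (log2 5.35 ± 0.57, adjusted p = 4.6e-10) and at 72 h with overlap (1.88 ± 0.51, adjusted p = 0.0013). The call of a rise in male embryos by 48 h rested on the 3 counts, and was lost without queen 1 male 48 h embryo 8 (1.89, adjusted p = 0.17, edgeR). A further esterase-like gene, LOC552199, had 1 count.

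Ethr, the receptor of ecdysis triggering hormone, which starts the moulting behaviour, fell in female embryos from 92.9 to 130 CPM at 24 h to 12.4 to 24.2 CPM at 48 h and 5.99 to 12.8 CPM at 72 h (log2 -2.59 ± 0.19 and -1.14 ± 0.20). Male embryos held 86.5 to 112 CPM, 57.1 to 129 CPM and 46.2 to 107 CPM, with neither step called under TMM scaling. With the RPKM totals both male steps were called falls (-1.08 and -1.51), and the second female step was -0.80 and not called. The sexes did not overlap at 48 h (-2.20 ± 0.19) or 72 h (-3.28 ± 0.21), and with the totals behind the RPKM values these were -1.41 and -0.70, the second not called. Its hormone, Eth, had 15 counts in all embryos.

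Of the membrane hormone receptors, LOC411738 (lutropin-choriogonadotropic hormone receptor-like) held 28.9 to 36.4 CPM, 10.1 to 15.2 CPM and 5.90 to 10.1 CPM in female embryos at 24, 48 and 72 h, and the first step was called (log2 -1.43 ± 0.15). Male embryos held 33.1 to 42.9 CPM, 48.9 to 68.2 CPM and 54.8 to 121 CPM, and the sexes did not overlap at 48 h (-2.22 ± 0.15) or 72 h (-3.18 ± 0.16), the latter being -0.56 and not called with the RPKM totals. LOC102655356 (thyrotropin-releasing hormone receptor-like) fell from 17.8 to 23.5 CPM to 1.51 to 4.85 CPM in female embryos by 48 h (-2.79 ± 0.25), while male embryos held 12.6 to 21.6 CPM at 48 h and fell by 1.27 ± 0.31 by 72 h. Akhr, the receptor of the fat-mobilising adipokinetic hormone, fell by 48 h in both sexes (-1.61 ± 0.33 and -1.55 ± 0.38). LOC413829 (diuretic hormone receptor-like) had 171 counts and was not tested.

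Of the nuclear receptor-associated proteins, LOC100576543 (steroid receptor RNA activator 1-like) was higher in female embryos at 48 h (61.3 to 102.3 against 19.04 to 42.9 CPM, log2 1.38 ± 0.16) and 72 h (43.7 to 72.7 against 18.3 to 28.6 CPM, 1.32 ± 0.18). LOC102656905 (nuclear receptor-binding factor 2-like) and LOC727436 (nuclear receptor 2C2-associated protein-like) fell in female embryos by 48 h (-1.30 ± 0.13 and -1.58 ± 0.38), and LOC727436 also in male embryos (-1.18 ± 0.39). With the RPKM totals LOC102656905 was called lower in male embryos too (-1.18, against -0.30 with TMM scaling).

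**Figure D4:**
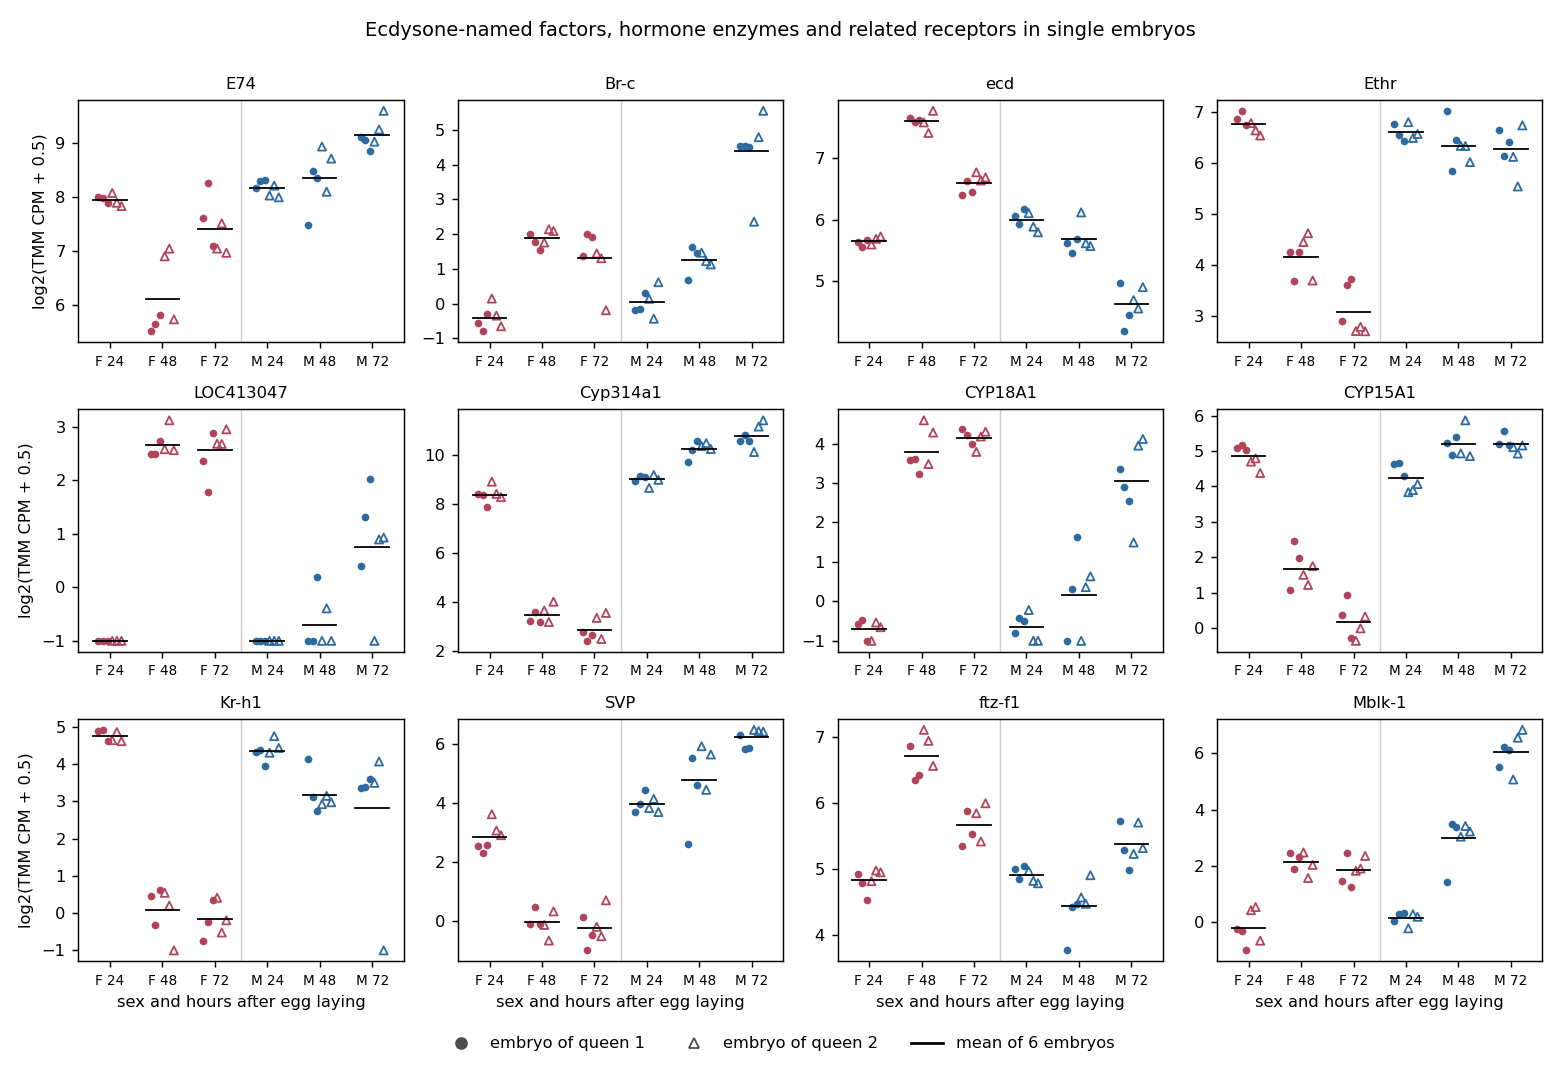
Levels of 5 members (E74, Br-c, ecd, Ethr, LOC413047) and of 7 pathway genes outside the product words in the 36 embryos, as log2(TMM CPM + 0.5), by sex (F, M) and hours after egg laying; circles are embryos of queen 1, triangles embryos of queen 2 and lines the means of 6 embryos. Cyp314a1, SVP, Kr-h1 and CYP15A1 are lower in 48 and 72 h female embryos than in every other group mean, and Br-c and Mblk-1 reach their highest mean in 72 h male embryos under this scaling.

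Pathway genes whose products lack the chosen words were taken from a list of enzyme and receptor names. Fold changes of single pathway genes are with TMM scaling unless the RPKM totals are named. Their size depends on the scaling, since at 72 h those totals moved the median of all genes from 0.41 to 2.97. Of 8 ecdysteroid synthesis and breakdown genes, 5 were higher (all genes: 33.7%) and 1 lower (27.6%) in female embryos at 48 h, and 4 higher (38.2%) and 1 lower (26.8%) at 72 h. The gene lower at both times was Cyp314a1, for the enzyme that turns ecdysone into 20-hydroxyecdysone. It held 235 to 478 CPM at 24 h, 8.58 to 15.6 CPM at 48 h and 4.84 to 11.2 CPM at 72 h in female embryos (24 to 48 h: log2 -4.96 ± 0.21, adjusted p = 2.5e-23). Male embryos held 400 to 578 CPM, 833 to 1493 CPM and 1104 to 2705 CPM, so the sexes lay far apart at 48 h (-6.84 ± 0.23) and 72 h (-7.99 ± 0.24). CYP18A1, for an enzyme that inactivates 20-hydroxyecdysone in Drosophila, moved the other way at 48 h, with 8.92 to 23.6 CPM in female and 0 to 2.58 CPM in male embryos (4.13 ± 0.45). The neverland gene LOC725442, for an early step of ecdysone synthesis, had 0 counts in 24 h female embryos and a mean of 8.18 CPM at 48 h, at least 27.6-fold above the floor. The RPKM totals gave 6 higher (49.2%) and 1 lower (17.6%) at 48 h, and 7 (78.8%) and 1 (7.73%) at 72 h.

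Of 13 juvenile hormone synthesis genes, 12 were tested, and 1 was higher (all genes: 33.7%) and 10 lower (27.6%) in female embryos at 48 h, then 2 higher (38.2%) and 7 lower (26.8%) at 72 h. The RPKM totals gave 2 higher (49.2%) and 7 lower (17.6%) at 48 h, then 5 (78.8%) and 5 (7.73%) at 72 h. Among those lower at 48 h were 6 farnesyl pyrophosphate synthase-like genes, whose counts are uncertain where copies are alike since only unambiguously aligned reads were counted, and CYP15A1, for the last epoxidation step, with 1.60 to 5.001 CPM in female and 28.4 to 57.7 CPM in male embryos (-3.74 ± 0.23). Hmgs, for the synthase that begins the mevalonate pathway, was the 1 that was higher (4.66 ± 0.35).

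Among 7 other receptors and partners, SVP (the insect COUP-TF) held 0.130 to 0.883 CPM in 48 h female and 5.68 to 60.6 CPM in 48 h male embryos (-6.02 ± 0.43). Kr-h1, a zinc finger factor induced by juvenile hormone in other insects, went from 24.0 to 29.8 CPM to 0 to 1.05 CPM in female embryos by 48 h (-5.30 ± 0.35), while male embryos held 6.13 to 17.2 CPM at 48 h. Its interaction term for this step (-4.17) was smaller in size than the female change, so the fitted male change was also a fall. Mblk-1, the honeybee homologue of the ecdysone-response factor E93, was at 33.1 to 114 CPM in 72 h male and 1.86 to 4.96 CPM in 72 h female embryos (-4.41 ± 0.34). Of the 7 genes, 3 were higher (33.7%) and 4 lower (27.6%) in female embryos at 48 h and 2 higher (38.2%) and 4 lower (26.8%) at 72 h. The totals behind the RPKM values gave 3 higher (49.2%) and 3 lower (17.6%) at 48 h, and 3 (78.8%) and 3 (7.73%) at 72 h. The receptor gene ftz-f1 held 81.3 to 138 CPM in 48 h female and 13.1 to 29.5 CPM in 48 h male embryos (2.30 ± 0.15), and then fell in female embryos (-1.05 ± 0.14), a value of -0.98 without queen 2 female 48 h embryo 18 or queen 2 female 72 h embryo 29.

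**Figure D5:**
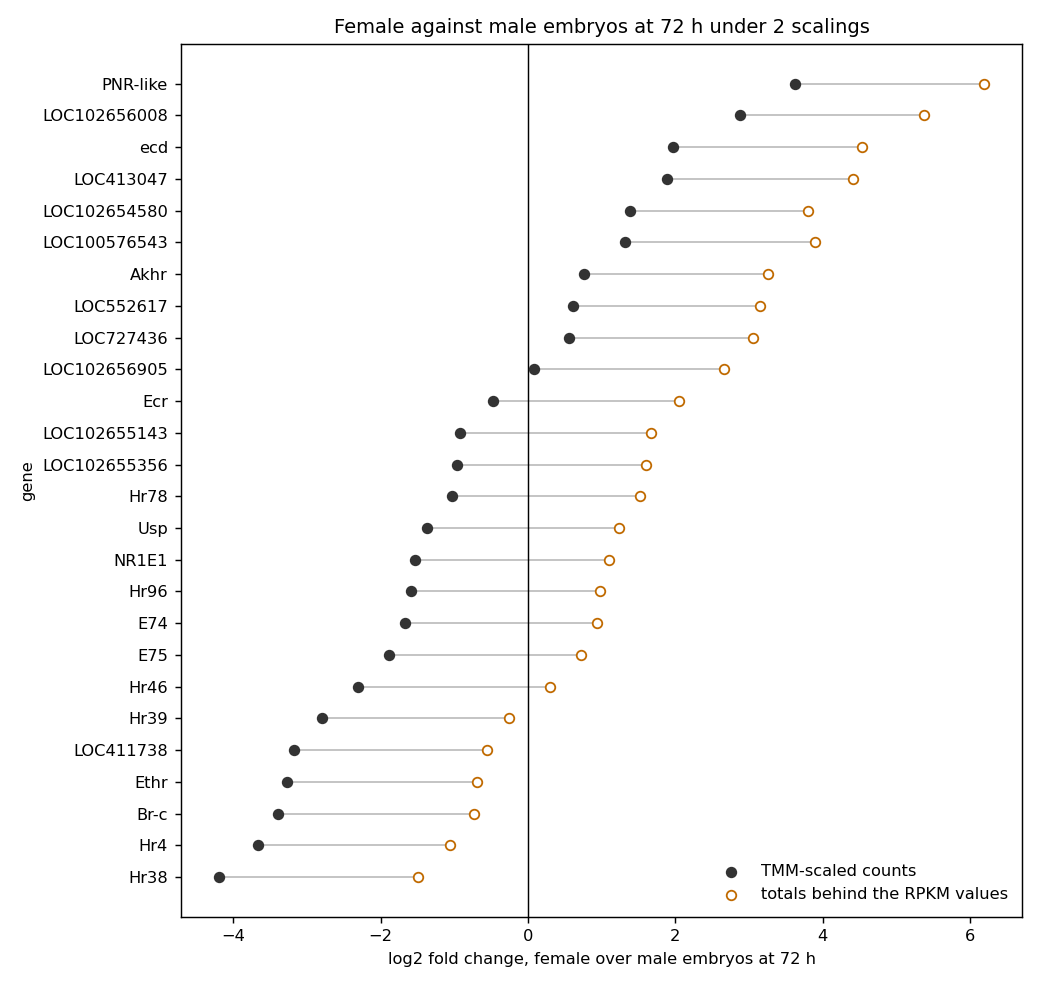
Log2 fold changes of the 26 tested members, female over male embryos at 72 h (x axis), with TMM-scaled counts (filled) and with the totals behind the RPKM values (open), 1 gene per row in the order of the TMM values. Every open point lies to the right of its filled point, and 7 called members, among them Usp (-1.37 and 1.24) and E75 (-1.89 and 0.72), stand on opposite sides of 0, while Hr38 (-4.20 and -1.50) does not.

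Marker lists for cell types and stages also differed between these groups, though not all of them in 1 direction. Germ line and maternal markers (4 genes) include 2 genes named aub, of which 1 had no count in male or in 24 h embryos, and summed to 2042 to 2339 CPM in 24 h female embryos and 149 to 200 CPM at 48 h, against 1175 to 1683 CPM in 48 h male and 1102 to 1541 CPM in 72 h male embryos. Male embryos held 2263 to 2736 CPM at 24 h. Of the 3 tested, 0 were higher (all genes: 33.7%) and 2 lower (27.6%) in female embryos at 48 h. At 72 h these were 0 (38.2%) and 2 (26.8%). The RPKM totals gave 0 (49.2%) and 2 (17.6%) at 48 h, then 1 (78.8%) and 1 (7.73%). In male embryos 1 fell from 24 to 48 h (10.4%) and 0 from 48 to 72 h (11.6%). With the RPKM totals all 3 fell at both steps (38.5% and 63.6%). Muscle markers (11 genes) summed to 183 to 325 CPM in 72 h female and 36.5 to 84.2 CPM in 72 h male embryos. Of the 4 tested, however, 1 was higher (all genes: 38.2%) and 2 lower (26.8%) in female embryos at 72 h. With the RPKM totals these were 2 (all genes: 78.8%) and 0 (7.73%). Early patterning markers (5 genes) summed to 630 to 823 CPM in 48 h female and 80.0 to 392 CPM in 48 h male embryos, and to 205 to 486 and 382 to 584 CPM at 72 h. Of these 5, 3 were higher (all genes: 33.7%) and 0 lower (27.6%) in female embryos at 48 h, and 2 higher (38.2%) and 2 lower (26.8%) at 72 h. En had no count in any male embryo. Neuronal markers (10 genes) summed to 111 to 128 CPM in 48 h female and 88.7 to 104 CPM in 48 h male embryos, and to 144 to 174 and 101 to 178 CPM at 72 h. With the same shares of all genes, 3 were higher and 3 lower at 48 h, and 4 and 4 at 72 h. The RPKM totals gave 7 higher (all genes: 78.8%) and 2 lower (7.73%) at 72 h. Cuticle markers (45 genes) summed to 283 to 473 CPM in 48 h female and 129 to 277 CPM in 48 h male embryos, and to 184 to 335 and 198 to 262 CPM at 72 h. Of the 15 tested, 7 were higher and 7 lower at 48 h, and 7 and 5 at 72 h. The RPKM totals gave 10 (all genes: 78.8%) and 5 (7.73%) at 72 h. Sums of fat body and adult markers (17 genes) overlapped between the sexes at 48 and 72 h. Of the 9 tested, 4 were higher and 3 lower at 48 h, and 5 and 3 at 72 h. In whole embryos fewer cells of a type and less RNA per cell cannot be told apart, and the part of these differences in the results above was not tested.

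The 33 genes matched only by the letters of COUP, of which 27 were tested, had 0 calls between the sexes at 24 h (0.0104% of all genes higher, 0.0836% lower), 6 higher (33.7%) and 15 lower (27.6%) in female embryos at 48 h, and 6 higher (38.2%) and 8 lower (26.8%) at 72 h. In female embryos 5 rose (32.4%) and 14 fell (26.5%) between 24 and 48 h, and 13 rose (20.7%) and 4 fell (14%) between 48 and 72 h. In male embryos 3 rose (10.9%) and 2 fell (10.4%), then 3 rose (16.7%) and 1 fell (11.6%).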

How the data were processed

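RNA of single embryos was amplified as full-length cDNA by PCR, transcribed from a T7 promoter and made into libraries. The authors trimmed reads with cutadapt and the FASTX-Toolkit and aligned them with TopHat2, keeping unambiguously aligned reads; the labels also name bcl2fastq 2.16.0.10. The counting tool and its use of strand are not given in the sources used here. Of the 33 hormone-named members, 15 overlap a gene on the opposite strand and 5 overlap one on the same strand. Ecr, Usp, NR1E1, LOC102655143, Hr46 and E74 are among the first, and E75, Br-c, Ethr, Hr46 and E74 among the second. The levels of these genes, and the ratios to Ecr, may therefore include reads of their neighbours. The deposited counts are raw reads per gene, and the RPKM values were scaled by the authors to exon length and a library total. That total was recovered from counts, RPKM and exon lengths (agreeing within 1% for 100% of genes checked). The deposited annotation gives positions on Amel_4.5 (columns of GFF positions, per the file headers).

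Counts of all 36 embryos were fitted with edgeR 4.0.16 in R 4.3.3 (TMM, quasi-likelihood, 6 groups of sex and time plus queen; minimum count 10, minimum total 15), giving 9 comparisons. Standard errors follow ±. DESeq2 1.42.0 and other settings served as alternatives. The scripts were tested on simulated data.

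Members and lists were chosen with earlier results of these data known. Named genes are the core members by role and, per comparison, the 5 most raised and 5 most lowered called members; the others are given by ranges. The likeness to Ecr is Spearman's rho over 12 means. Promoter and protein sequences were not used here, and some items are not reported here.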

Additional observations from a re-analysis of the deposited data

Results flagged for a closer look

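A single embryo stood apart from the other 5 of its sex and time (Dixon's test) in 20 of 152 sets of 6 values. For normal and independent values chance alone marks about 1 set in 20. These values were unlogged CPM, some from few counts, and the sets share libraries, so an excess over chance cannot be judged. These 20 values came from 13 embryos. In 24 h male embryos this was LOC102655356 at 21.5 CPM in queen 1 embryo 26 (the others between 15 and 16.8) and Hr46 at 0.719 CPM in queen 2 embryo 11 (the others between 0.257 and 0.423). In 72 h female embryos this was LOC411738 at 5.9 CPM in queen 1 embryo 14 (the others between 8.95 and 10.1) and Hr46 at 5.31 CPM in queen 1 embryo 15 (the others between 0.984 and 2.07). In 72 h male embryos this was PNR-like at 46.2 CPM in queen 2 embryo 17 (the others between 30.3 and 35.3), Hr39 at 123 CPM in queen 2 embryo 17 (the others between 60.2 and 81.8), LOC102654580 at 2.81 CPM in queen 2 embryo 24 (the others between 0 and 0.89) and Hr46 at 26.7 CPM in queen 2 embryo 24 (the others between 5.72 and 12.5). In the same embryos it was also Akhr at 4.21 CPM in queen 2 embryo 24 (the others between 0 and 1.36), LOC102655143 at 21.7 CPM in queen 2 embryo 23 (the others between 5.62 and 8.48), Ecr at 989.6 CPM in queen 2 embryo 17 (the others between 405 and 463) and Usp at 132 CPM in queen 2 embryo 23 (the others between 65 and 84.3). In the same embryos it was also LOC102656008 at 7.9 CPM in queen 1 embryo 4 (the others at 0) and NR1E1 at 53 CPM in queen 2 embryo 23 (the others between 20.4 and 32.3). In 48 h male embryos this was LOC102654580 at 0.421 CPM in queen 2 embryo 26 (the others at 0), Hr96 at 407 CPM in queen 1 embryo 6 (the others between 208 and 247) and ecd at 69 CPM in queen 2 embryo 21 (the others between 43.7 and 51.3). In 48 h female embryos this was LOC413047 at 8.19 CPM in queen 2 embryo 30 (the others between 5.1 and 6.19), Hr38 at 9.61 CPM in queen 2 embryo 29 (the others between 4.12 and 4.94) and LOC102656905 at 57.8 CPM in queen 2 embryo 30 (the others between 41.9 and 45.9).

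Further results were picked out because the step between times differed between female and male embryos (interaction term of the edgeR fit, female minus male change, log2). For the step from 24 to 48 h the term was positive for ecd (2.28), PNR-like (3.34), LOC102656008 (3.90), Hr38 (2.71), Br-c (1.83), E75 (1.20) and LOC100576543 (1.25), and among pathway genes for CYP18A1 (4.37) and ftz-f1 (2.38). It was negative for E74 (-1.96), Hr39 (-1.65), Hr96 (-2.11), Hr78 (-1.13), LOC102655143 (-2.36), LOC102655356 (-2.76), LOC411738 (-2.06), Ethr (-2.36) and LOC102656905 (-1.004), and among pathway genes for Cyp314a1 (-6.22), CYP15A1 (-4.37), Kr-h1 (-4.17) and SVP (-4.81). The E75 value was under the fold threshold without queen 1 male 48 h embryo 6 (0.998), and that of LOC102656905 without any of 13 single embryos. With the RPKM totals Hr39 (-0.90), Hr78 (-0.40) and LOC102656905 (-0.25) were not called.

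For the step from 48 to 72 h the term was positive for LOC102655356 (1.46) and LOC102655143 (1.57). It was negative for Hr38 (-7.25), Br-c (-4.16), Hr4 (-3.30), E75 (-2.65), NR1E1 (-1.98), Usp (-1.88), Ethr (-1.08), LOC413047 (-3.47) and LOC102654580 (-3.46), and among pathway genes for Mblk-1 (-3.41), CYP18A1 (-3.14), ftz-f1 (-2.01), CYP15A1 (-2.01) and Cyp314a1 (-1.15). The fitted values of LOC413047 and LOC102654580 depend on the prior count, since most 48 h male embryos had 0 counts, and are no bound. With the RPKM totals Ethr became 0.71 and Cyp314a1 0.67. Under them Usp (-0.09), NR1E1 (-0.20), E75 (-0.92), LOC413047 (-1.62) and LOC102654580 (-1.67) were not called either. Hr38 (-5.32), Br-c (-2.31) and Hr4 (-1.49) were still called, as were LOC102655356 (3.24) and LOC102655143 (3.33).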

How the results depend on the processing

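Each result was recomputed with DESeq2's size factors, the totals behind the RPKM values, DESeq2's Wald test, no filter, an unadjusted p under 0.01, each queen alone, counts thinned to the smallest total, and without each embryo. Of 148 called gene results (107 of members), 139 kept direction and call with size factors, 140 in the Wald test, 148 without a filter, 144 at the unadjusted p, 112 and 117 in queens 1 and 2 alone, 95 when thinned and 104 with the RPKM totals. The totals moved the median of all genes from 0.41 to 2.97 for female against male embryos at 72 h, and turned E74 to 0.94, Hr96 to 0.98, Hr46 to 0.30, Usp to 1.24, Hr78 to 1.53, NR1E1 to 1.10 and E75 to 0.72 there, Usp to -0.0598 and SVP to -0.16 in male embryos from 48 to 72 h, and the later interaction of Cyp314a1 to 0.67 and of Ethr to 0.71. Thinning turned the earlier interaction of Br-c to -0.13. The cause was not tested.

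Counts of members moved by over 1.5 times as follows. With the RPKM totals there were 13 higher in females at 48 h, 16 higher and 2 lower at 72 h, 5 risen and 1 fallen in females from 48 to 72 h, 0 risen and 13 fallen in males from 24 to 48 h, 4 and 10 from 48 to 72 h, and 13 and 3 for the later interaction. In queen 1 alone there were 2 fallen in females from 48 to 72 h (of 24 members tested) and 1 positive later interaction (of 26). In males there were 0 risen and 0 fallen from 24 to 48 h (of 20), and 4 and 0 from 48 to 72 h (of 18). In queen 2 alone there were 1 risen in females from 48 to 72 h (of 25 members tested) and 1 positive later interaction (of 26). In males there were 2 risen from 24 to 48 h (of 20), and 4 risen and 1 fallen from 48 to 72 h (of 17). Thinned counts left 20 members to test. They gave 1 risen and 2 fallen in females from 48 to 72 h, 1 and 1 in males from 24 to 48 h, and 5 and 0 from 48 to 72 h. There were 4 positive earlier interactions, and 1 positive and 4 negative later ones. Size factors gave 1 fallen in males from 48 to 72 h (719 of all 9575 genes) and 1 positive later interaction (1941 of 9575). The Wald test gave 1 fallen and 11 positive earlier interactions, and the unadjusted p 1 positive later interaction. Shares of all genes called were counted only for TMM scaling, size factors and the RPKM totals. Under the other settings, and without single embryos, a changed member count cannot be set against all genes.

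Without single embryos the counts lay between 0 and 0 higher and 0 and 0 lower between the sexes at 24 h, 7 to 8 and 7 to 9 at 48 h, and 5 to 7 and 12 to 15 at 72 h. They were 10 to 12 risen and 11 to 12 fallen, then 2 to 3 and 4 to 6 in females, 3 to 5 and 2 to 2, then 9 to 10 and 1 to 2 in males, and 6 to 10 and 8 to 9, then 1 to 3 and 7 to 11 for the interactions. Of 148 gene results, 19 lost the call without at least 1 embryo.

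Queen 1 male embryos at 48 and 72 h share 2 embryo numbers, but deviations of same-numbered embryos did not correlate (0.03 and -0.0033 over 9575 genes), so the numbers do not pair them. With the replicate block 3 members rose and 0 fell, against 4 and 0 in queen 1 alone. No other paired analysis was possible because the other groups compared shared fewer than 2 numbers. The 72 h male libraries, the smallest, limit the sparse members most.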
